A study of Mus musculus with 6 samples.

Results

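The genes described here encode the subunits of the mitochondrial respiratory chain and of ATP synthase, taken by name from an expression table of mouse macrophages. Symbols of the Nduf, Sdh, Uqcr, Cyc1, Cycs, Cox and Atp5 families were kept where the mean over the 6 libraries was at least 1 RPKM (reads scaled for transcript length and for library depth). Assembly factors such as the Ndufaf genes were left out, and Cox7a2l was counted in complex IV by its name. Of 85 symbols that met the name rule, 79 reached that level, out of 24016 genes in the table. They were 37 genes of complex I, 4 of complex II, 9 of complex III, 13 of complex IV, 15 of complex V (ATP synthase) and Cycs, which encodes cytochrome c. Cox6b2, at 1.22 RPKM, was the gene just inside that level and Cox6a2, at 0.862 RPKM, the gene just outside it. The other symbols that did not reach it were Cox4i2, Cox7b2, Cox8b, Cox8c and Ndufa4l2.

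The cells were bone marrow-derived macrophages, grown from the marrow of 8-week-old female C57BL/6N mice with the growth factor M-CSF at 20 ng/mL. The medium held no phenol red, and its serum had been stripped with charcoal. The cells were plated on day 7, given a compound for 1 h and then lipopolysaccharide (LPS, a bacterial cell wall component) at 100 ng/mL for 6 h. The hydroxyestrogen libraries were 3: replicate 1 received 2OHE2 (2-hydroxyestradiol), replicate 2 received 4OHE1 (4-hydroxyestrone) and replicate 3 received 2OHE1 (2-hydroxyestrone). The controls were also 3 libraries, where replicate 1 received only the ethanol vehicle (EtOH), replicate 2 estradiol (E2) and replicate 3 an estrogen labelled 16Epi. Stocks of 1 mM diluted 1 to 1000 give a dose of 1 µM; the final dose in the labels has a garbled unit. The labels contradict themselves, since their treatment field swaps the 2 groups; the groups used here follow the sample titles, the column headers and the vehicle named in the protocol. Each compound had 1 library, every culture received LPS, and nothing in the labels tells whether separate animals or cultures were used. A p-value here therefore reflects no more than the scatter of these 6 libraries. That scatter may be technical, and within a group it also holds any difference between the compounds.

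Complex I takes electrons from NADH and complex II takes them from succinate, and both pass them to ubiquinone. Complex III hands them on to cytochrome c and complex IV to oxygen, and complexes I, III and IV pump the protons whose return flow drives ATP synthase. Macrophages stimulated with LPS are known to lean on glycolysis and to use the chain partly as a source of reactive oxygen species. All genes that met the name rule are nuclear, and the subunits encoded by mitochondrial DNA are not analysed here.

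Reads in annotated genes numbered 16424057 to 17326353 in hydroxyestrogen libraries and 14734225 to 16059673 in control libraries. The 4OHE1 library stood apart from the rest: its 10 most abundant genes held 9.42% of its reads, against 7.67% to 7.99% in the other 5 libraries, and it had reads in 13210 genes, the fewest of the 6. Macrophage markers summed to 7193 to 8442 RPKM in hydroxyestrogen libraries and 8026 to 8441 RPKM in control libraries. Most of that sum was Lyz2, at 4445 to 5434 RPKM, so the sum alone does not bear out the macrophage label. Each of the 9 macrophage markers reached at least 1 RPKM in at least 1 library. Dendritic cell markers summed to 1.95 to 2.63 RPKM in hydroxyestrogen libraries and 2.31 to 2.96 RPKM in controls. The defining lymphocyte, erythroid and mast cell markers were listed at or near 0, neutrophil markers summed to 29.2 to 37.0 RPKM in hydroxyestrogen libraries and 32.02 to 46.8 RPKM in controls, and stromal markers to 13.3 to 20.4 RPKM and 17.0 to 20.3 RPKM in those groups. The part of these other cells in the results was not tested. In bulk RNA, fewer cells of a type and less RNA per cell cannot be told apart.

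The subunit genes were among the more abundant transcripts of these cells. Their median level was 73.6 RPKM, against 7.83 RPKM over the 11991 genes tested, and 8.498% of tested genes stood at or above that median. Complex IV had the highest median (148 RPKM), followed by complexes V (122 RPKM), III (121 RPKM), II (85.7 RPKM) and I (55.9 RPKM). Levels within a complex ranged more widely than these medians: complex I ran between 9.69 RPKM for Ndufb4 and 220.2 RPKM for Ndufa2, and complex V between 20.9 RPKM for Atp5l and 447 RPKM for Atp5b, the catalytic beta subunit of ATP synthase. Together the 79 genes made up 1.87%, 1.99% and 1.85% of the summed RPKM of the 2OHE2, 4OHE1 and 2OHE1 libraries, against 1.91%, 1.92% and 1.88% in the control libraries EtOH, E2 and 16Epi. The groups overlapped in this share, and the 4OHE1 library was the highest.

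**Figure D1:**
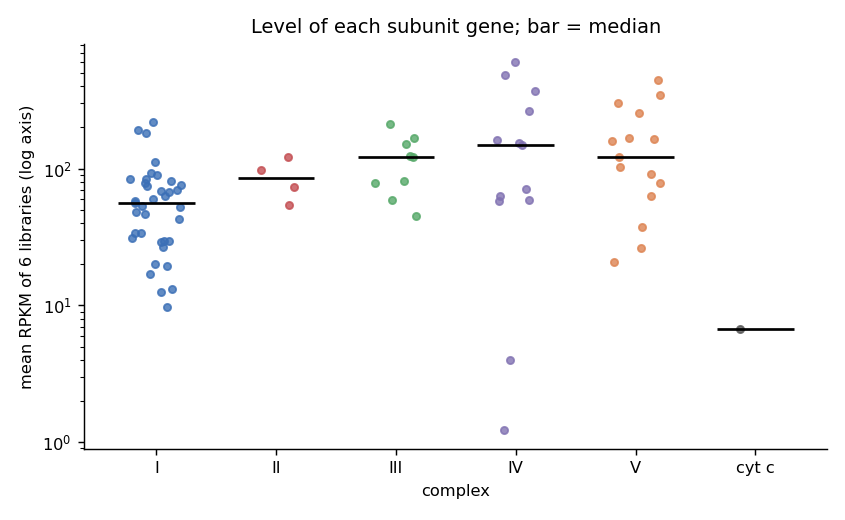
Mean level of each of the 79 subunit genes over the 6 libraries (RPKM, log axis), by complex, with each dot 1 gene and each bar the median of the complex. The medians of complexes I to V lie between 55.9 RPKM (complex I) and 148 RPKM (complex IV), and 2 genes of complex IV, Cox7a1 and Cox6b2, lie far below the others.

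Complex IV has subunits with tissue-restricted isoforms, and the ubiquitous form was the abundant one in each case. Cox4i1 stood at 597 RPKM, against 0.241 RPKM for Cox4i2, the isoform known from lung. Cox6a1 had 485 RPKM and the heart and muscle form Cox6a2 0.862 RPKM. Cox7a2 had 148 RPKM, against 3.98 RPKM for the muscle form Cox7a1, and Cox6b1 had 368 RPKM, against 1.22 RPKM for the testis form Cox6b2. Cox8a was at 263 RPKM, while Cox8b and Cox8c were listed at 0 in all 6 libraries. Ndufa4, named for complex I but found in complex IV, had 192 RPKM and its paralog Ndufa4l2 was listed at 0. Cycs, the mobile electron carrier, was low for this set at 6.70 RPKM over a transcript of 3054 nt.

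All 79 genes passed the filter on low values, with a median of 950 reads per library. Cox6b2, Cox7a1 and Ndufb4 had under 100 reads in at least 1 library. Whether counting used strand is not given in the sources here, and 9 of the genes overlap another gene of the table (Ndufa2, Ndufa10, Ndufa13, Ndufs1, Ndufs5, Uqcrc2, Atp5b, Atp5f1 and Atp5j), so their values may hold reads of the neighbour. Ndufb4, Uqcrh, Cycs, Atp5k and Atp5l have processed pseudogenes named after them in the GENCODE annotation, and reads that match more than 1 copy make their levels uncertain.

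The first comparison asked how the subunit genes stood in macrophages given a hydroxyestrogen before LPS, relative to macrophages given vehicle or another estrogen. A single gene of the 79 passed the test: Atp5g1, which encodes subunit c of the ATP synthase rotor ring, was higher in hydroxyestrogen libraries. The call rule was an adjusted p under 0.05 by limma with Benjamini-Hochberg adjustment over all 11991 tested genes; 1.88% of those genes were called, 1.28% as higher and 0.6% as lower. At an unadjusted p under 0.05, limma took 7 of the 79 genes (8.86%), all higher in hydroxyestrogen libraries, against 13.5% of all tested genes. They were Atp5g1, Cox7c, Atp5h, Ndufa11, Ndufs6, Ndufs7 and Ndufa8. The median log2 difference (hydroxyestrogens minus controls) was 0.04 over the 79 genes, with 49 positive, and -0.02 over all tested genes. It was 1e-04, with 40 positive, once each library's trend with transcript length had been taken out, 0.01 without the 4OHE1 library and 0.09 without the 2OHE1 library. The 95% interval of a gene reached 0.20 (median) to either side on the log2 scale.

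Atp5g1, Atp5g2 and Atp5g3 encode the same mature subunit c behind different mitochondrial targeting sequences. Atp5g1 lies on chr11:95934107-95937008 of mm9, minus strand. It had 44.9, 48.2 and 45.7 RPKM in the 2OHE2, 4OHE1 and 2OHE1 libraries, against 31.3, 29.1 and 23.7 RPKM in the EtOH, E2 and 16Epi libraries. Every hydroxyestrogen library lay above every control, and those values rest on 668 to 753 reads in hydroxyestrogen libraries and 312 to 451 in controls. Means were 46.3 ± 1.73 RPKM in hydroxyestrogen libraries and 28.0 ± 3.93 RPKM in controls (SD, n = 3 each), a log2 difference of 0.73 ± 0.11 (SE; adjusted p = 0.0114, limma with Benjamini-Hochberg adjustment). The call held in each of the 6 fits that left out a library (adjusted p 0.0193 to 0.0407, by limma). It was lost without the filter on low values (adjusted p = 0.0517, limma) and without the variance trend (adjusted p = 0.138, limma). In the authors' deposited table Atp5g1 was also called, with a log2 difference of 0.74 (hydroxyestrogens minus controls) and an adjusted p of 2.99e-04; that table called no other of the 79 genes (lowest adjusted p 0.241), and it called 2.42% of all its genes.

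The other genes of subunit c did not pass the test. Atp5g2 had 26.0, 29.3 and 30.01 RPKM in the 2OHE2, 4OHE1 and 2OHE1 libraries, against 20.8, 28.9 and 23.4 RPKM in the EtOH, E2 and 16Epi libraries. These groups overlapped, and the log2 difference of 0.23 ± 0.13 (SE) did not pass (adjusted p = 0.479, limma). Atp5g3, by far the most abundant, had 332, 346 and 326 RPKM in the 2OHE2, 4OHE1 and 2OHE1 libraries, against 366, 347.4 and 347.1 RPKM in the EtOH, E2 and 16Epi libraries. Each hydroxyestrogen library lay below each control there, with 4OHE1 close to E2 and 16Epi, and the log2 difference of -0.08 ± 0.06 (SE) did not pass (adjusted p = 0.620, limma). Summed over the 3 genes, the level was 410 ± 12.2 RPKM in hydroxyestrogen libraries and 406 ± 11.9 RPKM in controls (SD, n = 3 each), with the groups overlapping. Atp5g1 made up 11.1%, 11.4% and 11.4% of that sum in the 2OHE2, 4OHE1 and 2OHE1 libraries, against 7.49%, 7.19% and 6.01% in the control libraries EtOH, E2 and 16Epi. Atp5g3 made up 81.8% ± 0.629 of it in hydroxyestrogen libraries and 87.1% ± 1.23 in controls (SD, n = 3 each). These shares use the same values as the test of Atp5g1 and were not tested again.

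**Figure D2:**
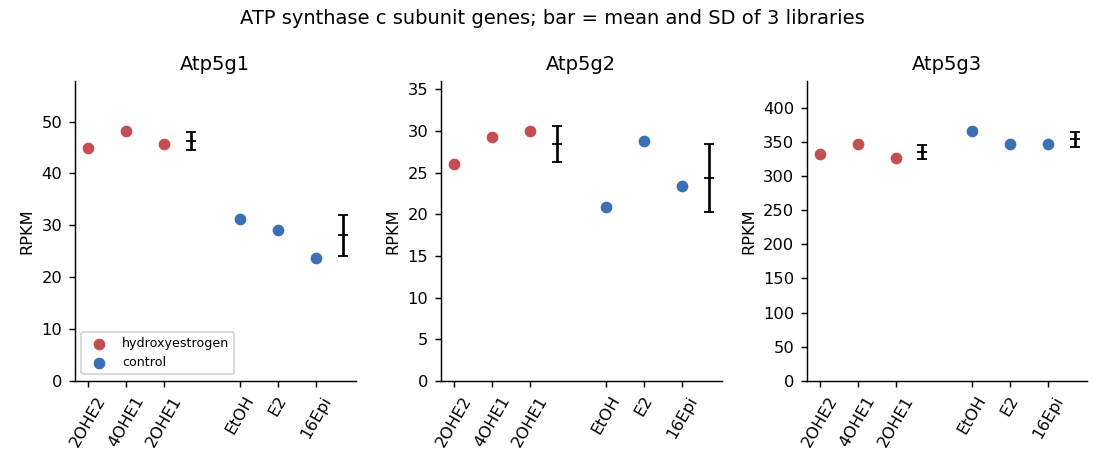
Level (RPKM, linear axes that start at 0) of the 3 genes of ATP synthase subunit c in each library, with the mean and SD of 3 libraries beside each group. Atp5g1 lies between 44.9 and 48.2 RPKM in hydroxyestrogen libraries and between 23.7 and 31.3 RPKM in controls, while the groups overlap in Atp5g2 and Atp5g3 lies between 326 and 366 RPKM in all 6 libraries.

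The 3 genes differ in the DNA before their start sites. The 250 bases before each annotated start are printed because the genes encode the same mature protein and 1 of them was called. The sequences are RefSeq's, build GRCm38.p6, and all lie on the minus strand: Atp5g1 at chr11:96075632-96075881, Atp5g2 at chr15:102671048-102671297 and Atp5g3 at chr2:73911327-73911576. Capitals mark the words CCAAT (or its reverse complement ATTGG) and GCGC, any 2 bases and GCGC again, the palindromic core of sites of NRF1, a transcription factor known for nuclear genes of the respiratory chain.
Atp5g1: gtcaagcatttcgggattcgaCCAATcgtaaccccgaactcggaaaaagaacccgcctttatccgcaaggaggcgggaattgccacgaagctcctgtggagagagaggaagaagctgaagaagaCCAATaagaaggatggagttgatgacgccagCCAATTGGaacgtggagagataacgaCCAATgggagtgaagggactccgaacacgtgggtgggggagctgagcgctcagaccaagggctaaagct
Atp5g2: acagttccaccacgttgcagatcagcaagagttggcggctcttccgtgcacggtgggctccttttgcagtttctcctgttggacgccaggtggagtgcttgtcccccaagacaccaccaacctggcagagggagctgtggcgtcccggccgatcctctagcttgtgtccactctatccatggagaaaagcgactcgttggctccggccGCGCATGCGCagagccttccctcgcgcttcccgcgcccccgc
Atp5g3: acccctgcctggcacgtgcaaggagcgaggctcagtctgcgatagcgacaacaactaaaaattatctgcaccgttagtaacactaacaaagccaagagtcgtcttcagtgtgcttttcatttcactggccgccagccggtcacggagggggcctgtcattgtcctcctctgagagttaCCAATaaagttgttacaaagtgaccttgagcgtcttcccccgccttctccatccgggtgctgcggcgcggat
The Atp5g1 window held 5 CCAAT words on the 2 strands, of which 2 overlap, and the Atp5g3 window 1; the Atp5g2 window held none and was the one with the NRF1 word. CCAAT was searched after these sequences had been seen. At least 5 CCAAT words stood in 2 of the 67 subunit genes with a RefSeq window, Atp5g1 and Atp5b, and in 0.248% of all 27025 genes with one. Over the 67 genes, the NRF1 word was present in 15 (22.4%, against 5.64% of all genes) and CCGGAAG, a word bound by ETS factors, in 12 (17.9%, against 7.83%). CCAAT was present in 29 (43.3%, against 37.5%) and TGACNNNGC, the core of the antioxidant response element, in 6 (8.96%, against 11.5%), all on both strands. None of the c subunit windows held CCGGAAG or TGACNNNGC. A match describes letters and not a bound site. The 27025 genes include ones not tested here, and a comparison with expressed genes alone was not made.

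Complex I has 7 nuclear core subunits that carry the flavin and the iron-sulphur clusters, and 30 accessory genes in this set. None of the 37 passed the test in the group comparison. Of their differences 25 were positive and the median was 0.06. That median was 1e-04 once each library's trend with transcript length had been taken out (the length adjustment). Ndufs7, which holds the last iron-sulphur cluster before ubiquinone, had 65.0, 69.0 and 68.8 RPKM in the 2OHE2, 4OHE1 and 2OHE1 libraries, against 59.0, 64.3 and 53.0 RPKM in the EtOH, E2 and 16Epi libraries. The groups did not overlap, with 2OHE2 close to E2, and the log2 difference was 0.21 ± 0.09 (SE; adjusted p = 0.340, limma). Ndufa11, an accessory subunit of the membrane arm, had 14.1, 14.3 and 14.6 RPKM in the 2OHE2, 4OHE1 and 2OHE1 libraries, against 11.5, 12.5 and 11.4 RPKM in the EtOH, E2 and 16Epi libraries (log2 difference 0.27 ± 0.11 SE, adjusted p = 0.305, limma). Hydroxyestrogen libraries lay above controls there too. Ndufa8, an accessory subunit with disulphide bonds, had 99.8, 100.4 and 87.8 RPKM in the 2OHE2, 4OHE1 and 2OHE1 libraries, against 87.8, 86.6 and 76.2 RPKM in the EtOH, E2 and 16Epi libraries. The groups overlapped through the 2OHE1 and EtOH libraries.

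Complex II, succinate dehydrogenase, had no positive difference among its 4 genes, and none passed the test. Sdha, the flavoprotein that oxidises succinate, had 56.6, 46.2 and 49.5 RPKM in the 2OHE2, 4OHE1 and 2OHE1 libraries, against 57.6, 58.9 and 54.6 RPKM in the EtOH, E2 and 16Epi libraries (log2 difference -0.17 ± 0.09 SE, adjusted p = 0.458, limma). The 4OHE1 library was the lowest, and 2OHE2 lay within the controls. Sdhb, the iron-sulphur subunit, had 115, 127 and 107 RPKM in the 2OHE2, 4OHE1 and 2OHE1 libraries, against 126, 124 and 129 RPKM in the EtOH, E2 and 16Epi libraries (log2 difference -0.12 ± 0.08 SE, adjusted p = 0.532, limma). The membrane anchors Sdhc and Sdhd each had a log2 difference of -0.03. Summed over the 4 genes, the level was 338, 346 and 324 RPKM in the 2OHE2, 4OHE1 and 2OHE1 libraries, against 354, 348 and 368 RPKM in the EtOH, E2 and 16Epi libraries. The sums did not overlap between the groups, with 4OHE1 close to E2, and were not tested. The sums of complexes I, III, IV and V overlapped between the groups. Over single genes, the groups did not overlap in 20% of all tested genes.

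Complex III had 4 positive differences among 9 genes and a median of -0.01. That median was 0.01 with median-ratio scaling (library factors taken from the median ratio over genes) and -0.07 with the length adjustment. Cyc1, the cytochrome c1 that reduces cytochrome c, had 74.5, 81.3 and 74.6 RPKM in the 2OHE2, 4OHE1 and 2OHE1 libraries, against 88.2, 87.2 and 80.7 RPKM in the EtOH, E2 and 16Epi libraries (log2 difference -0.15 ± 0.07 SE, adjusted p = 0.412, limma). The 4OHE1 library overlapped the controls there. Uqcrc2, a core protein, averaged 43.5 ± 3.66 RPKM in hydroxyestrogen libraries and 47.3 ± 2.84 RPKM in controls, and Uqcrq, a small subunit, 218 ± 21.3 RPKM and 203 ± 9.43 RPKM in those groups (SD, n = 3 each). Neither passed the test. Cycs averaged 7.18 ± 1.23 RPKM in hydroxyestrogen libraries and 6.23 ± 0.462 RPKM in controls (SD, n = 3 each; log2 difference 0.19 ± 0.17 SE, adjusted p = 0.681, limma).

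Complex IV had 11 positive differences among 13 genes and a median of 0.12, with no gene past the test. That median was 0.042 with the length adjustment and 0.04 without the 4OHE1 library. Cox7c, a small subunit of cytochrome c oxidase, had 56.7, 62.1 and 77.5 RPKM in the 2OHE2, 4OHE1 and 2OHE1 libraries, against 49.2, 54.4 and 52.5 RPKM in the EtOH, E2 and 16Epi libraries. The groups did not overlap and the 2OHE1 library was the highest; the log2 difference was 0.32 ± 0.11 (SE; adjusted p = 0.254, limma). Cox6c stood the other way, at 133, 141 and 160.2 RPKM in the 2OHE2, 4OHE1 and 2OHE1 libraries, against 160.4, 171 and 154 RPKM in the EtOH, E2 and 16Epi libraries. Its groups overlapped through the 2OHE1 library (log2 difference -0.17 ± 0.08 SE, adjusted p = 0.427, limma). Cox4i1 averaged 615 ± 67.8 RPKM in hydroxyestrogen libraries and 580 ± 29.1 RPKM in controls (SD, n = 3 each), with the highest value, 693 RPKM, in the 4OHE1 library.

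Complex V had 8 positive differences among 15 genes and a median of 0.06, which was 0.01 with the length adjustment. Atp5b, the catalytic beta subunit, averaged 445 ± 15.1 RPKM in hydroxyestrogen libraries and 449.5 ± 5.02 RPKM in controls (SD, n = 3 each; log2 difference -0.02, 95% interval -0.14 to 0.11). Atp5h, subunit d of the peripheral stalk, had 60.4, 71.5 and 74.7 RPKM in the 2OHE2, 4OHE1 and 2OHE1 libraries, against 54.1, 55.2 and 61.0 RPKM in the EtOH, E2 and 16Epi libraries (log2 difference 0.27 ± 0.10 SE, adjusted p = 0.250, limma). The 2OHE2 and 16Epi libraries made those groups overlap. Atp5k, subunit e, had 129, 201 and 166 RPKM in the 2OHE2, 4OHE1 and 2OHE1 libraries, against 181, 159 and 165 RPKM in the EtOH, E2 and 16Epi libraries.

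In 11 of the 79 genes (13.9%) the groups did not overlap, against 20% of all tested genes. Ndufa10, Ndufa11, Ndufs3, Ndufs6, Ndufs7, Cox7b, Cox7c, Atp5c1 and Atp5g1 were higher in every hydroxyestrogen library, 11.4% of the set against 9.15% of all tested genes. Atp5a1, the alpha subunit of ATP synthase, and Atp5g3 were lower in every one, 2.53% against 10.8% of all tested genes. Of these 11, only Atp5g1 passed the test; the others of this group not named above were picked out after their values had been seen.

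The second comparison set each hydroxyestrogen against the 3 controls. Each compound had 1 library, which the fit assumes to vary like the controls, and the 3 comparisons share those controls. The controls differed less from each other (chi-square per degree of freedom 7.18 to 8.42 between libraries) than the hydroxyestrogen libraries did (15.2 to 29.1). With 4OHE1, 2 of the 79 genes were called, Ndufab1 and Ndufb11, both higher, against 3.69% of all tested genes (1.41% higher, 2.28% lower). At an unadjusted p under 0.05, limma took 29 of the 79 (36.7%) with 4OHE1, 26 higher and 3 lower, against 23.9% of all tested genes. With 2OHE2 no gene was called by limma, against 0.609% of all tested genes (0.3% higher, 0.309% lower); 12 had an unadjusted p under 0.05 (15.2%, against 13.8%), 5 higher and 7 lower. With 2OHE1 no gene was called either, against 0.542% of all tested genes (0.334% higher, 0.208% lower); 12 had an unadjusted p under 0.05 (15.2%, against 14.2%), 6 higher and 6 lower.

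Ndufab1, the acyl carrier protein of the mitochondrion and an accessory subunit of complex I, lies on chr7:129231558-129245362 of mm9, minus strand. It had 19.1 RPKM in the 4OHE1 library, against 9.69, 11.7 and 10.98 RPKM in the EtOH, E2 and 16Epi libraries, a log2 difference of 0.82 ± 0.16 (SE; adjusted p = 0.0438, limma). The other hydroxyestrogen libraries had 9.69 RPKM (2OHE2) and 14.6 RPKM (2OHE1), so 2OHE2 lay at the lowest control. Ndufb11, an accessory subunit of the membrane arm, lies on chrX:20192452-20194690 of mm9, minus strand. It had 65.7 RPKM in the 4OHE1 library, against 48.0, 49.4 and 49.5 RPKM in the EtOH, E2 and 16Epi libraries (log2 difference 0.42 ± 0.08 SE, adjusted p = 0.04999, limma), and 58.8 and 44.0 RPKM in the 2OHE2 and 2OHE1 libraries. Both 4OHE1 calls were lost in the fits without E2 or without 16Epi among the controls (adjusted p 0.0761 to 0.114, limma), without the low-value filter, without the variance trend and with a length adjustment. The Ndufb11 call was also lost without EtOH (adjusted p = 0.0558, limma). Atp5g1 stood at a log2 difference of 0.69 with 2OHE2, 0.79 with 4OHE1 and 0.71 with 2OHE1, each ± 0.16 (SE), with adjusted p of 0.130, 0.0512 and 0.139 (limma).

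Other genes stood high or low with a compound without passing the test. Those named have a mean of at least 10 RPKM, unless a lower mean is given. With 2OHE2, a gene of complex IV below that level had the lowest log2 difference of all 79 genes, at -0.95. With 2OHE1, Ndufa12, an accessory subunit of complex I, had 40.3 RPKM, against 25.4, 19.9 and 29.1 RPKM in the EtOH, E2 and 16Epi libraries (log2 difference 0.71, adjusted p = 0.199, limma). It stood above every control with 4OHE1 too, at 35.9 RPKM (log2 difference 0.55, adjusted p = 0.164, limma), and within the controls with 2OHE2, at 23.3 RPKM. Atp5g1 had the same rounded difference with 2OHE1, and Cox7a1 stood at 0.70 there with a mean of 3.98 RPKM over the 6 libraries. Further positive differences with 2OHE1 were those of Ndufs5 (0.62, adjusted p = 0.189) and Cox7c (0.58, adjusted p = 0.0638), and the most negative was Ndufb5 (-0.46, adjusted p = 0.116, all limma). With 2OHE2, the accessory subunit Ndufa1 had 40.1 RPKM, against 52.1, 70.9 and 57.4 RPKM in the EtOH, E2 and 16Epi libraries (log2 difference -0.57, adjusted p = 0.212, limma). Ndufa5 followed at -0.50 (adjusted p = 0.328) and Atp5k at -0.38 (adjusted p = 0.134, both limma). In the 4OHE1 library the most negative gene was Sdha, at -0.30 (adjusted p = 0.114, limma).

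By complex, the medians of the 4OHE1 library lay above those of the 2OHE2 and 2OHE1 libraries, but with the length adjustment those of complexes I and V did not: complex I had 0.040 with 4OHE1 and 0.042 with 2OHE2, and complex V had 0.019 with 4OHE1 and 0.022 with 2OHE1. Without that adjustment, its median log2 differences from the controls were 0.16 (complex I), -0.01 (complex II), 0.15 (complex III), 0.25 (complex IV) and 0.19 (complex V), with complex II at 0.06 under median-ratio scaling. Over all 79 genes the median was 0.16, with 62 positive, against -0.06 over all tested genes. The 2OHE2 library had medians of 0.05, -0.06, -0.04, 0.01 and -0.03 for complexes I to V and of 0.01 over the 79 genes, against 0.04 over all tested genes; under median-ratio scaling the value for the 79 genes was -0.02. The 2OHE1 library had medians of -0.02, -0.13, -0.10, 0.06 and 0.07 for complexes I to V and of -0.03 over the 79 genes, against -0.02 over all tested genes. Without the 4OHE1 library, the median of the 79 genes for hydroxyestrogens against controls was 0.01, and that of complex IV was 0.04. Complex IV summed to 2396, 2686 and 2402 RPKM in the 2OHE2, 4OHE1 and 2OHE1 libraries, against 2363, 2453 and 2276 RPKM in the EtOH, E2 and 16Epi libraries.

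**Figure D3:**
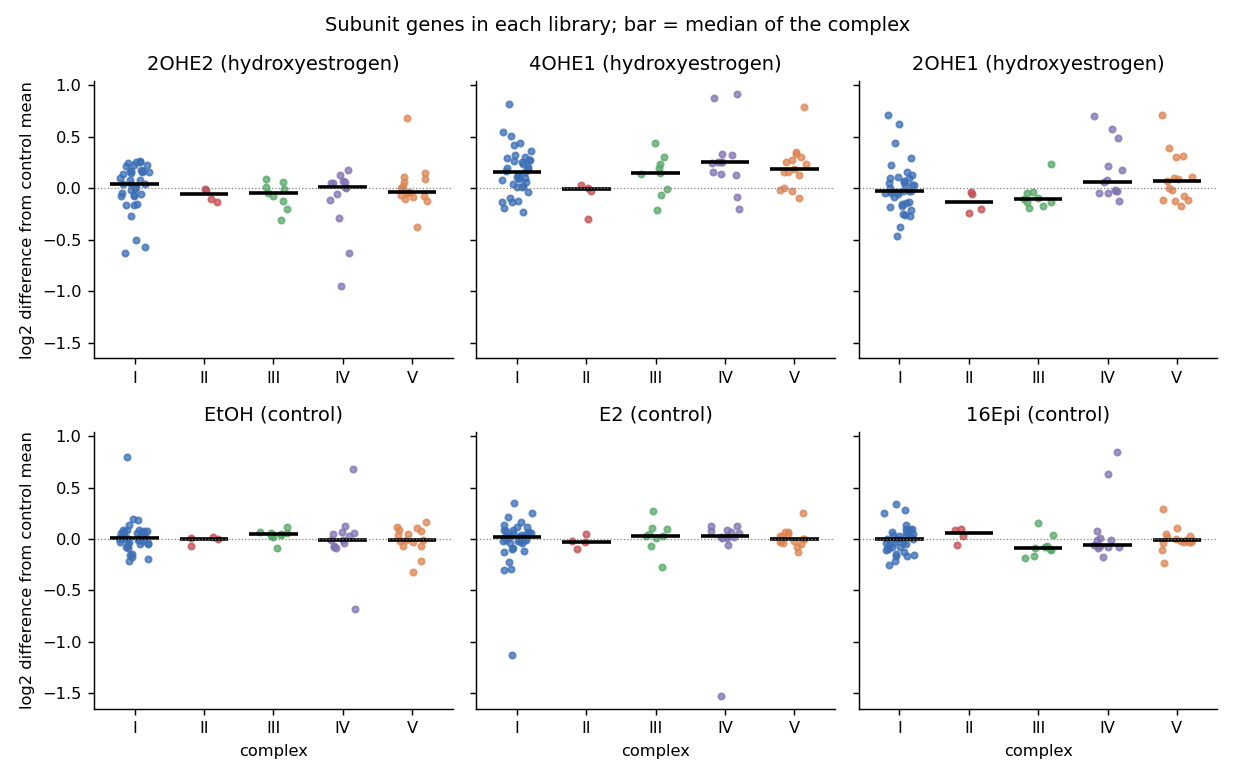
Log2 difference of each subunit gene in each library from the mean of the 3 controls (log2 of RPKM + 0.1), by complex, with each dot 1 gene and each bar the median of the complex, hydroxyestrogens in the upper row. The 4OHE1 medians of complexes I, III, IV and V lie between 0.15 and 0.25, and all other medians shown lie between -0.13 and 0.07.

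The core subunits of complex I can be set beside its accessory ones. With 2OHE2 all 7 differences from the controls were positive (median 0.16), with 4OHE1 all 7 (median 0.18), and with 2OHE1 2 of 7 (median -0.05). Ndufs3, a core subunit of the peripheral arm, had 36.9 RPKM with 4OHE1, against 28.9, 29.98 and 27.3 RPKM in the EtOH, E2 and 16Epi libraries (adjusted p = 0.109, limma). The 30 accessory genes had medians of 0.03 with 2OHE2, 0.15 with 4OHE1 and -0.01 with 2OHE1. The core class was drawn after the values had been seen.

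The subunit transcripts are short, and short transcripts stood higher in the 4OHE1 library over the whole table. The 79 genes had a median length of 662 nt, with 70.9% under 1000 nt, against 2727 nt and 8.90% for all tested genes. In the 4OHE1 library the median log2 difference from controls over all 1067 tested genes under 1000 nt was 0.16, and over the 3227 genes of 4000 nt or more it was -0.24. Subunit genes under 1000 nt had a median of 0.24 there (56 genes, 48 positive), and those of 1000 nt or more one of 0.01 (23 genes, 14 positive). Within that class, the 18 under 2000 nt had a median of 0.0074, against 0.05 over all genes of 1000 nt or more and under 2000 nt, and the 5 of 2000 nt or more, all under 4000 nt, had 0.21, against -0.06 over all genes between those lengths. In the 2OHE2 library the medians of these same subunit classes were -0.0045 and 0.02, and in the 2OHE1 library 0.02 and -0.08. After each library's trend with length had been taken out, the 4OHE1 median of the 79 genes was 0.02, with 44 positive, and Ndufab1 and Ndufb11 no longer passed (log2 differences 0.68 and 0.29, adjusted p 0.0861 and 0.142, limma). In that fit 1 gene was called with 4OHE1, Cox6c, as lower. With 791 nt Atp5g1 is short too, and its call for hydroxyestrogens against controls held with the adjustment (log2 difference 0.67, adjusted p = 0.0117, limma).

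**Figure D4:**
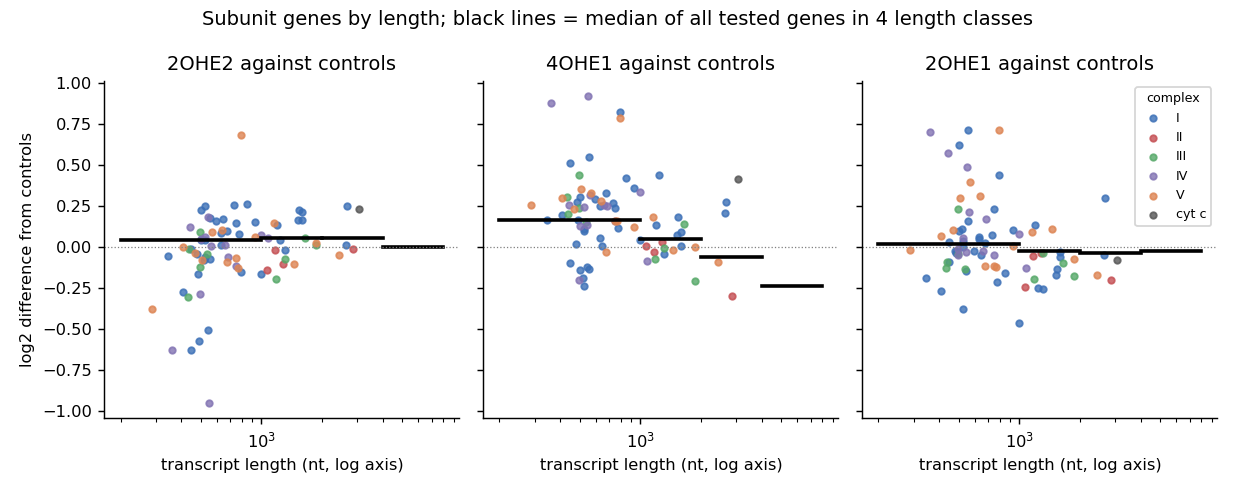
Log2 difference from the controls of each subunit gene (dots, coloured by complex) against transcript length in nt (log axis), for 2OHE2, 4OHE1 and 2OHE1. Black lines give the median of all tested genes in 4 length classes, which in the 4OHE1 library runs between 0.16 under 1000 nt and -0.24 at 4000 nt or more.

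The compounds were compared in 6 pairs at the same dose and times, with 1 library each and the spread taken from the other group. 2OHE2 and 2OHE1 differ in the group on the D ring of the steroid, a hydroxyl in the estradiol and a ketone in the estrone. No subunit gene was called between them by limma, over genes or over genes and pairs together, against 0.0417% of all tested genes; 12 had an unadjusted p under 0.05 (15.2%, against 10.6%). The smallest p was that of Ndufb11, with 58.8 RPKM in 2OHE2 and 44.0 RPKM in 2OHE1 (log2 difference 0.42, 95% interval 0.17 to 0.67, adjusted p over pairs 0.434, limma). 4OHE1 and 2OHE1 differ in where the added hydroxyl sits on the aromatic ring. No gene was called between these, against 0.0417% of all tested genes, with 20 at an unadjusted p under 0.05 by limma (25.3%, against 15%). Ndufb11 again had the smallest p, with 65.7 RPKM in 4OHE1 and 44.0 RPKM in 2OHE1 (log2 difference 0.58, 95% interval 0.33 to 0.83, adjusted p over pairs 0.335, limma).

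4OHE1 and 2OHE2 differ in both places. None of the 79 genes was called between them, against 0.0751% of all tested genes, with 19 at an unadjusted p under 0.05 by limma (24.1%, against 15.8%). Uqcr11, a small subunit of complex III, had the smallest p, with 151 RPKM in 4OHE1 and 98.5 RPKM in 2OHE2 (log2 difference 0.62, 95% interval 0.38 to 0.85, adjusted p over pairs 0.266, limma). The median difference over the 79 genes was 0.14 for 4OHE1 minus 2OHE2 and 0.16 for 4OHE1 minus 2OHE1, against 0.01 for 2OHE2 minus 2OHE1. For Atp5g1 the intervals of the 3 differences were -0.50 to 0.44 (2OHE2 minus 2OHE1), -0.39 to 0.55 (4OHE1 minus 2OHE1) and -0.37 to 0.57 (4OHE1 minus 2OHE2). With 1 library each, a difference within these intervals was not detectable.

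Among the controls, no subunit gene was called by limma between E2 and EtOH, 16Epi and EtOH, or E2 and 16Epi, against 0.00834%, 0.0167% and 0.0167% of all tested genes in those pairs. The genes with an unadjusted p under 0.05 numbered 3, 0 and 4 of the 79 (against 1.35%, 1.51% and 1.37% of all tested genes), and the medians of the 79 differences were -0.01, -0.04 and 0.03. The gene with the smallest p in each pair was Ndufb4, Atp5l and Cox7a1 in that order. Ndufb4 had 4.05 RPKM in E2 and 15.6 RPKM in EtOH (31 and 128 reads; log2 difference -1.92, adjusted p over pairs 0.435, limma). Cox7a1 had 0.977 RPKM in E2 and 5.50 RPKM in 16Epi (6 and 33 reads; log2 difference -2.38, adjusted p over pairs 0.4996, limma). Both rest on few reads. The spread for the control pairs came from the 3 hydroxyestrogen libraries, each given a different compound. The limma interval reached 0.42 to either side (median of the 79 genes) in these pairs, against 0.28 in the hydroxyestrogen pairs. The numbers of genes with a low p in the 2 kinds of pairs are therefore not comparable. The low numbers in control pairs do not show that the controls were alike.

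Genes that build or feed the chain were described with 3 lists, 49 assembly factors, 22 tested genes of mitochondrial biogenesis and mitochondrial DNA expression (of 24), and 20 genes of ubiquinone synthesis and of other electron donors to ubiquinone. For hydroxyestrogens against controls none of them was called by limma, with 5 of 49, 0 of 22 and 4 of 20 at an unadjusted p under 0.05, against 1.88% of all tested genes called and 13.5% at that unadjusted p; the medians were -0.05, 0.06 and -0.01. Acn9 (Sdhaf3), an assembly factor of complex II, had 4.46, 6.68 and 4.86 RPKM in the 2OHE2, 4OHE1 and 2OHE1 libraries, against 3.02, 1.07 and 2.75 RPKM in the EtOH, E2 and 16Epi libraries (10 to 72 reads; log2 difference 1.29, adjusted p = 0.146, limma). It did not pass, although the groups did not overlap.

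With 4OHE1, 3 genes of these lists were called, all lower, against 3.69% of all tested genes called and 2.28% called as lower. None of the list genes was called without the low-value filter, without the variance trend or without E2 among the controls, and 1 was called without 16Epi. Cox20, a chaperone of complex IV assembly, had 13.1 RPKM in the 4OHE1 library, against 35.8, 33.6 and 29.1 RPKM in the EtOH, E2 and 16Epi libraries (log2 difference -1.32 ± 0.14 SE, adjusted p = 0.0104, limma). It stood at 26.3 and 24.7 RPKM in the 2OHE2 and 2OHE1 libraries, below every control as well. Ndufaf2, an assembly factor of complex I, had 4.06 RPKM with 4OHE1, against 8.31, 8.18 and 9.17 RPKM in the EtOH, E2 and 16Epi libraries (54 reads with 4OHE1; log2 difference -1.06 ± 0.17 SE, adjusted p = 0.0290, limma). Gpd2, the mitochondrial glycerol-3-phosphate dehydrogenase, had 19.9 RPKM with 4OHE1, against 27.9, 29.1 and 30.8 RPKM in the EtOH, E2 and 16Epi libraries (log2 difference -0.56 ± 0.11 SE, adjusted p = 0.0466, limma). With 2OHE2 a single list gene was called: Pet117, a complex IV assembly factor, had 1.83 RPKM, against 5.68, 9.01 and 8.09 RPKM in the EtOH, E2 and 16Epi libraries (11 reads with 2OHE2; log2 difference -1.97 ± 0.28 SE, adjusted p = 0.0475, limma). In that comparison 0.609% of all tested genes were called. The Pet117 call was lost with pseudocount 1, without the low-value filter, by limma-voom, with the authors' log2 values, without the variance trend, and without E2 or without 16Epi. Pet117 had 10.6 RPKM with 4OHE1, the highest of the 6 libraries. With 2OHE1 none was called by limma, with 9 of 49, 2 of 22 and 2 of 20 at an unadjusted p under 0.05, against 0.542% of all tested genes called and 14.2% at that unadjusted p.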

How the data were processed

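Expression values of 6 RNA sequencing libraries were used. The deposited RPKM values were computed by the authors with HOMER, which counted exon reads for 1 transcript per gene and scaled them for length and depth, per the file headers. Tools and build were STAR, HOMER, DESeq2, edgeR and mm9, with no versions, per the submitters' processing notes. A further table deposited by the authors gives log2 expression per library, a log2 fold change and a p-value with its adjusted value. A comparison with its own columns showed that positive fold changes there mean higher levels in controls, and the sign was turned here.

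Multiplying RPKM by length and library depth returned reads: of 1873 to 2607 values per library (fewer than 20 reads, genes shorter than 6000 nt), 100% lay within 0.1 of a whole number. A gene was tested when 3 or more libraries had 10 or more such reads, which kept 11991 of 24016. The test was limma 3.58.1 (R 4.3.3) on log2(RPKM + 0.1), with a variance trend, two-sided, Benjamini-Hochberg adjusted over all tested genes, threshold 0.05. Such log2 differences understate changes of low genes. Errors and 95% intervals are limma's. Comparisons with 1 library of a compound used 1 coefficient per library and took the spread from the other group. The script was tested on simulated data. No pair of libraries was a duplicate (chi-square per degree of freedom 7.18 or more). Members were matched in the authors' table by symbol. Windows of 250 bases came from RefSeq for 67 of the 79 genes.

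The members, lists and tests were chosen with earlier results of these data known. Genes were named by a rule: those called, the 2 with the smallest p and the highest and lowest level per complex, the 3 highest and 3 lowest per compound with at least 10 RPKM, all Sdh and subunit c genes, Cyc1 and Cycs, and, of the other lists, those called and up to 2 with the smallest p. Alternatives were a pseudocount of 1, no filter, median-ratio scaling, limma-voom on the recovered reads, the authors' log2 values, no variance trend, a length adjustment (lowess per library), members of at least 10 RPKM, Ndufa4 placed in complex IV, each library left out, and the replicate number as a block. Results of some genes are left out of the text.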

Additional observations from a re-analysis of the deposited data

How the results depend on the processing

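Of 508 values of the comparisons recomputed under the alternatives, 425 stayed within 1.5 times the count or within the spread of the libraries, and 83 moved. That spread was taken from the controls for single compounds and from both groups for the group comparison. The hydroxyestrogen call of Atp5g1 kept its direction everywhere; without the filter or without the variance trend 0 subunit genes were called. Without the filter, called genes numbered 0 with 4OHE1 against controls, 2 for 4OHE1 against 2OHE1 and 2 for 4OHE1 against 2OHE2; without the trend, 0 with 4OHE1. Called subunit genes with 2OHE2, 4OHE1 and 2OHE1 against controls numbered 1, 7 and 1 by limma-voom and 2, 14 and 3 with the authors' log2 values, and with 4OHE1 5 under median-ratio scaling and 1 under the length adjustment. Of all tested genes, 3.86%, 13.7% and 3.12% were called by limma-voom in these comparisons, and 4.84%, 14.4% and 4.62% with the authors' values; with 4OHE1, 3.50% were called under median-ratio scaling and 2.59% under the length adjustment. For 4OHE1 against 2OHE1 and 4OHE1 against 2OHE2 the subunit genes numbered 1 and 1 by limma-voom (against 2.24% and 2.01% of all tested genes), and 2 and 5 with the authors' values (against 3.13% and 3.62%). Leaving out 1 library at a time gave 0 to 2 called with 2OHE2, 0 to 3 with 4OHE1, 0 to 2 with 2OHE1, 0 to 1 for 4OHE1 against 2OHE2 and 1 to 1 for the group comparison. In the 3 lists together, the 1 call with 2OHE2 was lost (0) with pseudocount 1, no filter, limma-voom, the authors' values and no trend, and ranged over 0 to 1 with 1 library left out; the 3 calls with 4OHE1 became 0 without the filter or the trend, 8 by limma-voom, 10 with the authors' values, and 0 to 8 with 1 library left out. Medians with 4OHE1 for complexes I, II, IV, V and all subunit genes were 0.23, 0.057, 0.32, 0.25 and 0.23 under median-ratio scaling and 0.12, 0.040, 0.15, 0.15 and 0.14 with the authors' values. Under the length adjustment the 4OHE1 medians of complexes I to V were 0.040, -0.10, -0.021, 0.045 and 0.019, that of all was 0.019, that of complex II with 2OHE2 was -0.11 and that of complex V with 2OHE1 0.022. With 2OHE2, the medians of complex I, complex V and all genes were 0.013, -0.066 and -0.022 under median-ratio scaling, and those of complex I and all genes 0.0049 and -0.015 with the authors' values. With 2OHE1, complexes I and V had -0.0016 and 0.091 under median-ratio scaling, and complexes I, II, V and all genes -0.00090, -0.077, 0.063 and -0.0021 with the authors' values. Placing Ndufa4 in complex IV, or keeping members of at least 10 RPKM, gave complex I 0.062 with 2OHE2 and 0.15 with 4OHE1, and the 10 RPKM level gave complex IV -0.014 with 2OHE1. With 1 library left out, the medians ranged over 0.045 to 0.081 (complex I) and -0.046 to -0.00092 (complex V) with 2OHE2, 0.14 to 0.18 (complex I) and 0.17 to 0.21 (complex V) with 4OHE1, and -0.031 to 0.011 (complex I) and 0.013 to 0.13 (complex V) with 2OHE1. The cause of these shifts was not tested, apart from the smaller sets of the last alternatives. Deviations of same-numbered libraries correlated at -0.04, 0.07 and 0.04, against -0.08 to 0.04 for libraries of unlike number. Each number also stands for different compounds, so these values cannot tell whether the libraries were paired. A replicate block left the count at 1, Atp5g1 (adjusted p = 0.0180, limma). With 1 library per compound, the 95% interval reached 0.23 (median) to either side on the log2 scale, and genes under 100 reads were less precise still.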

Other observations

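Pdss1, Sqrdl and Tfb1m, genes of the lists, stood near the threshold with a single compound and were picked out after their values had been seen. Pdss1, an enzyme that makes the side chain of ubiquinone, had 4.50 RPKM in the 4OHE1 library, against 7.89, 8.71 and 9.88 RPKM in the EtOH, E2 and 16Epi libraries (log2 difference -0.95, adjusted p = 0.0503, limma). Sqrdl, the sulphide oxidase that feeds ubiquinone, had 63.3 RPKM in the 4OHE1 library, against 43.5, 33.8 and 31.5 RPKM in the EtOH, E2 and 16Epi libraries (log2 difference 0.82, adjusted p = 0.0618, limma). Tfb1m, a methyltransferase of mitochondrial ribosomal RNA, had 1.80 RPKM in the 2OHE2 library, against 4.51, 3.98 and 4.62 RPKM in the EtOH, E2 and 16Epi libraries (45 reads with 2OHE2; log2 difference -1.23, adjusted p = 0.0796, limma).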
